A study of Caenorhabditis elegans with 2 samples.

Results

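The 10 genes lim-4, ceh-36, ceh-37, str-1, str-2, odr-1, odr-3, odr-10, tax-2 and tax-4 act in amphid olfactory neurons of Caenorhabditis elegans, where sox-2 has a known role in the AWB and AWC pairs. They are 10 of 19973 nuclear protein-coding genes and were chosen by name, not by a measured value. SOX-2 binding was mapped by ChIP-seq, in which an antibody pulls down a protein with the DNA bound to it. Per the labels, both libraries came from whole embryos of strain RW12244 (late embryonic, age 3.5 hours, synchronised by egg bleaching), whose own sox-2 gene on chromosome X carries a CRISPR-made TY1::EGFP::3xFLAG insertion, and the antibody was directed at GFP. The 2 biological replicates form 1 group with no second condition, so all values below describe where peaks lie and no test between groups could be made. A summit, the highest point of a peak, was counted for a gene when it lay inside the gene or within 5000 bp of either end. Ranked lists hold candidate peaks, also those with a high irreproducible discovery rate (IDR). Thresholded lists hold peaks with an IDR of at most 1%, a low IDR marking a peak that ranks alike in repeat lists. In the series list made from both replicates 773 ranked peaks reached that value and 677 were in the authors' thresholded list, the step between them not being described in the labels.

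SOX-2 is an HMG box factor of the SoxB group, the group that in vertebrates is known for keeping neural progenitors. In the worm it is known to act in the terminal differentiation of AWB, with the LIM homeodomain factor lim-4, and of AWC, with the OTX homeodomain factor ceh-36. AWB detects repellents, AWC detects attractants, and both signal through G proteins, cyclic GMP and a cyclic nucleotide-gated channel. The list also holds odr-10, which is best known as the diacetyl receptor of another olfactory pair, AWA.

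Of the 10 genes, odr-10 alone had a thresholded SOX-2 summit within 5000 bp, and this summit stood beside a small nucleolar RNA (snoRNA) gene. A set of 4 stretches is shown, each read from the WBcel235 genome on the plus strand. The first is centred on the thresholded summit upstream of odr-10, chrX:6867816-6868016, with the B box core GTTCNANNC in capitals. The B box is an internal promoter element of genes that RNA polymerase III transcribes, and the snoRNA gene C53B7.8 runs from base 123 to base 193 of this stretch. The next are centred on the ranked summits upstream of tax-4, chrIII:9178815-9178955, and of odr-1, chrX:13553111-13553251, the other summits that both replicates marked within 100 bp. There the capitals mark the bases from one replicate's summit to the other's. The last is centred on the strongest summit near str-1 in replicate 1, chrIV:7168934-7169034, with the SOX core motif CWTTGT (read on both strands, W being A or T) in capitals. It was chosen because it holds this motif, and neither replicate 2 nor the series list had a summit there.
odr-10 upstream summit: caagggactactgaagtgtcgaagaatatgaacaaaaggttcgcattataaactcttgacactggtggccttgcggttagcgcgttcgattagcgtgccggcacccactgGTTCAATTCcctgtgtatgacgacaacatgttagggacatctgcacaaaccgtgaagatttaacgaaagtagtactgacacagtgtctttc
tax-4 upstream summit: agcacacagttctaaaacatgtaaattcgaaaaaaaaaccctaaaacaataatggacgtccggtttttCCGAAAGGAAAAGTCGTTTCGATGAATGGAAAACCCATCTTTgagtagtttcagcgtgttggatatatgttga
odr-1 upstream summit: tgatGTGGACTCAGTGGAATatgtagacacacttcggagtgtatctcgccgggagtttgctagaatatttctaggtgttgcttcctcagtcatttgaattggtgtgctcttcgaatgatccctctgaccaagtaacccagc
str-1 replicate 1 summit: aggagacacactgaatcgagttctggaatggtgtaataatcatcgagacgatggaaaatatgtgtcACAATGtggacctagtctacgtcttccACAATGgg

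A thresholded summit lay near 1 of the 10 genes, against 8.32% of all protein-coding genes under the same rule. The conservative thresholded list gave the same 1 gene, against 8.26%. In the own thresholded list of replicate 1 odr-10 was again the 1 gene (6.93% of all genes), and in that of replicate 2 none of the 10 had a summit (7.06% of all genes). Ranked summits lay near 5 of the 10 genes, namely lim-4, odr-1, odr-10, tax-2 and tax-4, against 58.7% of all protein-coding genes. The members' shares are thus close to those of protein-coding genes at large. The embryos were taken whole, and these neurons are a small minority of their cells, so that binding in a few cells and no binding cannot be told apart in these lists.

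**Figure D1:**
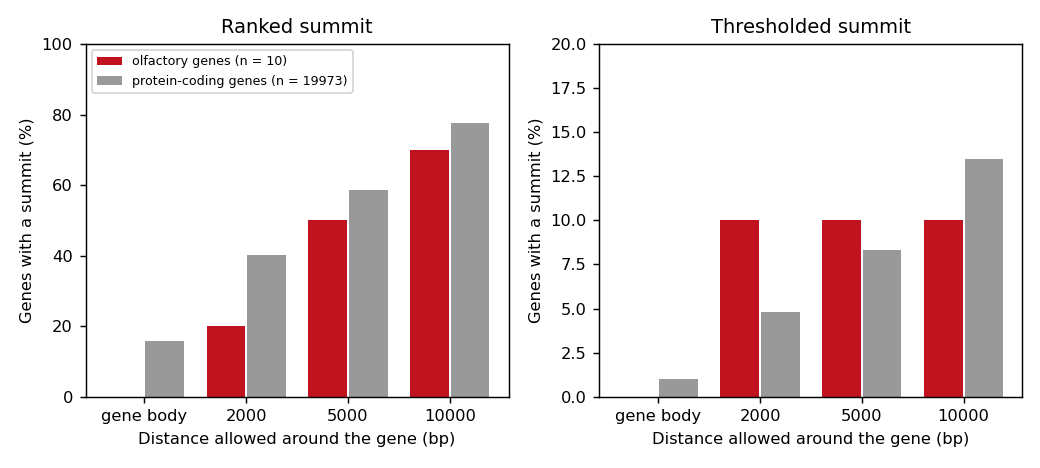
Share of genes (y axis, percent) with a summit of the series lists within the distance on the x axis, for the 10 olfactory genes in red and 19973 protein-coding genes in grey; bars have no error because each is 1 count over genes. For ranked summits the olfactory genes stand below the grey bar at each distance, with 5 of 10 against 58.7% at 5000 bp, and for thresholded summits 1 of 10 stands beside 8.32%.

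None of the ranked summits of the series list lay in a member's body or promoter. In the series list, ranked summits inside the gene body were found for 0 of 10 members, against 15.8% of protein-coding genes. Between 1000 bp upstream and 200 bp downstream of the 5′ end, the count was again 0 of 10, against 14.3%. The 6 ranked summits of the members fell 4 upstream and 2 downstream of the gene, the nearest to a 5′ end being that of odr-10. Over the summed windows of 141075 bp this was 0.425 summits per 10 kb, beside 0.813 over the windows of all protein-coding genes and 0.925 over those on chromosome X, where 5 of the 10 genes lie. Each replicate's own ranked list, which is longer, gave a density closer to that of all genes, at 2.20 against 2.32 in replicate 1 and 2.13 against 2.39 in replicate 2. The replicate lists also placed summits in gene bodies, 8 in replicate 1 and 10 in replicate 2, at 6 members each. The share of all genes with such a summit was not computed for these lists, so these counts cannot be judged. These long lists reached all 10 members in replicate 1 (90.7% of all genes) and 9 of 10 in replicate 2 (91% of all genes), the gene without one being str-1.

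**Figure D2:**
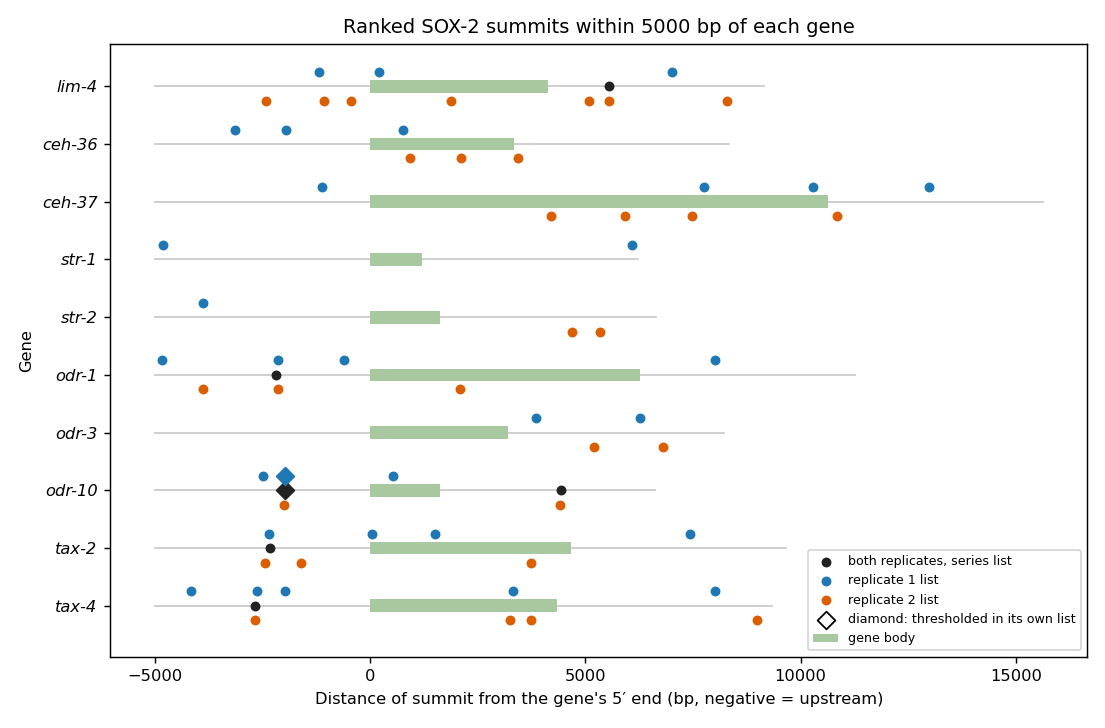
Position of each ranked summit relative to the gene's 5′ end (x axis, bp, negative upstream) for the 10 genes (y axis), with the series list in black on the gene line, replicate 1 in blue above it and replicate 2 in orange below it; green bars are gene bodies and diamonds are summits thresholded in their own list. The diamonds stand at odr-10 alone, 1977 bp upstream in the series list, and no black point falls on a green bar.

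The regulators lim-4, ceh-36 and ceh-37 carried no thresholded SOX-2 summit within 5000 bp, where 8.32% of all protein-coding genes had one. lim-4 codes for the LIM homeodomain factor that sets AWB identity (X:3869404-3873545, minus strand). Its 1 ranked summit, X:3867862-3868145 with a signal of 40.8, lay 1400 bp past its 3′ end inside the non-coding RNA gene ZC64.9. Signals are values the authors assigned to peaks, of unstated scale, and their median over all ranked peaks of the series list was 40.8 as well. Replicate 2 marked this place with a signal of 18.2 and replicate 1 had no summit within 100 bp. The IDR of the lim-4 peak was 84.8%, the highest value in the list, which 46.6% of the ranked peaks share.

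Weak summits of the replicates met once upstream of lim-4. Replicate 1 had a summit 1174 bp upstream of its 5′ end (signal 15.2) and replicate 2 had one 1077 bp upstream (13.1), with no series summit there. Both stood at the highest IDR of their lists, 93.6% and 94.3%. Replicate 2 listed 7 summits in the lim-4 window, the most of any member in either replicate, with signals from 12.3 to 21.7, and replicate 1 listed 3, from 15.2 to 19.6. These signals lie around the ranked-list medians of 17.8 in replicate 1 and 16.8 in replicate 2.

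ceh-36 and ceh-37 code for OTX homeodomain factors. ceh-36 sets AWC identity, and ceh-37 is known to act in AWB upstream of lim-4. ceh-36 lies at X:14183221-14186566 and ceh-37 at X:14197372-14208000, both on the minus strand and next to each other on the chromosome. Neither had a ranked summit in the series list, the nearest standing 13332 bp downstream of ceh-36 with a signal of 52.6 and 20952 bp upstream of ceh-37 with 60.8. The replicates listed 3 summits each at ceh-36, with a strongest signal of 19.3 in an intron in replicate 1 and of 22.3 in a coding exon in replicate 2. At ceh-37 they listed 4 each, the strongest being 17.2 in replicate 1, downstream of the gene, and 20.9 in replicate 2, in an intron. None of these summits of one replicate lay within 100 bp of a summit of the other.

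Of the receptor genes, odr-10 held the strongest peak of all 10 genes, and str-1 and str-2 held none in the series list. str-1, a chemoreceptor gene known as an AWB marker, lies at IV:7173789-7175008. Replicate 1 had a summit 4805 bp upstream of it with a signal of 26.3 and an IDR of 40.6%, whose stretch is printed above. That summit lay in a coding exon of skr-16, 274 bp from the nearest 5′ end, that of skr-16, and held CWTTGT 2 times within 50 bp. Replicate 2 had no ranked summit within 5000 bp of str-1, and the nearest one of the series list stood 6996 bp upstream, outside the limit, with a signal of 45.3. str-2, a chemoreceptor gene expressed in 1 of the AWC pair, lies at V:9822619-9824249. Its 1 summit in replicate 1 (20.7, 3883 bp upstream) and its 2 summits in replicate 2 (13.7 and 15.6, both downstream) stood far from each other.

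The thresholded peak near odr-10 lay upstream of the gene and next to C53B7.8. odr-10 codes for the diacetyl receptor and lies at X:6864315-6865939 on the minus strand. The peak, X:6867774-6868057, had its summit 1977 bp upstream of the odr-10 5′ end and a series signal of 90.1 at an IDR of 0.149%. It was stronger than 93.3% of the ranked peaks, and ranked 472 of 677 thresholded peaks, whose median signal was 104.3. Replicate 1 gave a signal of 45.1 and replicate 2 one of 41.6, or 43.3 ± 2.49 (SD, n = 2), with summits 17 bp apart. In replicate 1 the peak was thresholded at an IDR of 0.92%, and in replicate 2 it was not, at 1.16%. The values of the replicates were close together, on either side of the threshold.

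Other genes lie nearer to that summit than odr-10 does. The 5′ end of C53B7.8, a snoRNA gene of 71 bp on the plus strand (X:6867938-6868008), was 22 bp from the summit and inside the peak. The nearest protein-coding 5′ end was that of C53B7.6, 853 bp away, with the summit 716 bp past its 3′ end. The B box core in the printed stretch began 10 bp from the summit and ended 4 bp before the first base of C53B7.8. Within 50 bp of the summit this core occurred at 20 of 46 thresholded summits that lie within 100 bp of a snoRNA gene and not within 500 bp of a tRNA gene (43.5%), the odr-10 peak being 1 of the 20. It occurred at 80 of 118 thresholded summits within 500 bp of a tRNA gene (67.8%), at 19 of 496 other thresholded summits (3.83%) and at 5.16% of all nuclear ranked summits. It was found at no other ranked summit of the 10 genes. A match to these letters is a description and not a site, and this motif was looked for after the sequence had been seen.

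A snoRNA gene beside the summit was seen more often among thresholded peaks than among other ranked peaks. A snoRNA gene lay within 5000 bp of 1 of the 10 members, odr-10, and of 4.27% of all protein-coding genes. Of 660 nuclear thresholded summits 46 (6.97%) lay within 100 bp of a snoRNA gene, against 0.447% of the 7826 nuclear ranked summits outside the thresholded list. Whether the peak bears on odr-10, on C53B7.8 or on neither was not tested. Within 100 bp of the summit, 2 of 166 stretches of 36 bases (1.20%) occurred more than once in the nuclear genome, and no such stretch was repeated at the other 5 ranked summits of the members. The nearest annotated tRNA gene was 35198 bp away.

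A further ranked peak lay on the other side of odr-10. Its summit, in X:6861368-6861651, stood 2805 bp past the 3′ end of odr-10, in a coding exon of the neprilysin family gene nep-4. The series signal was 35.5 at an IDR of 84.8%, replicate 2 gave 29.1, and replicate 1 had no summit within 100 bp. The other ranked list of the series did not hold this peak. Inside odr-10 itself the 1 summit was that of replicate 1, in an intron, with a signal of 14.9.

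**Figure D3:**
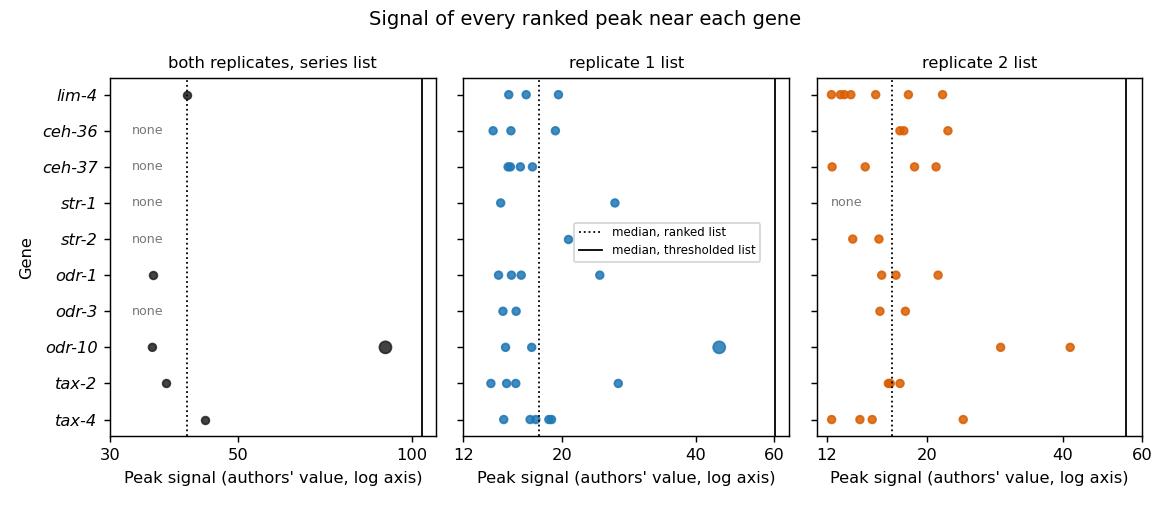
Signal of every ranked peak within 5000 bp of each gene (x axis, authors' value, log axis; y axis, gene) in the series list and in the list of each replicate; large points are thresholded peaks, the dotted line is the median of the ranked list, the solid line that of the thresholded list, and the 3 lists have scales of their own. The odr-10 peak stands apart at 90.1 in the series list, 45.1 in replicate 1 and 41.6 in replicate 2, still left of the solid line, while all other points in the series list are at most 43.8.

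Of the signalling genes, odr-1, tax-4 and tax-2 each had 1 ranked summit, upstream of the gene and with an IDR above 1%, and odr-3 had none. odr-1 codes for a receptor guanylyl cyclase of AWB and AWC and lies at X:13544729-13550990 on the minus strand. Its ranked summit, in X:13553039-13553322, stood 2191 bp upstream in a coding exon of the globin family gene glb-20, with a series signal of 35.6. The replicates gave 16.2 and 15.9, with an SD of 0.226 (n = 2) and summits 15 bp apart, and both values are below the medians of their lists. The IDR was 84.8% in the series list. Closer to the odr-1 5′ end, 592 bp upstream, replicate 1 alone had a summit with a signal of 24.3. odr-3 codes for a G protein alpha subunit of olfactory cilia and lies at V:13246324-13249536. It had no ranked summit within 5000 bp in the series list. The nearest stood 5206 bp upstream, just outside the limit, with a signal of 34.6. The replicates listed 2 summits each downstream of it, from 14.7 to 17.9, and none within 100 bp of each other.

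tax-4 and tax-2 code for the alpha and beta subunits of the cyclic nucleotide-gated channel that olfactory and other sensory neurons share. tax-4 lies at III:9181546-9185888 on the plus strand, and its ranked summit in III:9178743-9179026 stood 2661 bp upstream in intergenic sequence. This was the second strongest ranked summit of the members, with a series signal of 43.8, above 60.5% of the ranked list, and an IDR of 52.4%. The replicates gave 18.9 and 24.1, or 21.5 ± 3.63 (SD, n = 2), with summits 41 bp apart. The nearest protein-coding 5′ end to it was that of tax-4. Inside tax-4 the replicates also met in an intron, at signals of 14.8 and 12.3, both at the highest IDR of their lists and without a series summit.

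tax-2 lies at I:9020945-9025608 on the plus strand. Its ranked summit in I:9018479-9018762 stood 2324 bp upstream of tax-2 and 49 bp upstream of the 5′ end of F36F2.1, the gene between them. The series signal was 37.5 at an IDR of 84.8%. Replicate 1 gave 26.7, and the summit of replicate 2 nearby, with 16.4, lay just over 100 bp from that of the series. The summits of the 2 replicates were 84 bp apart, so here too the replicates met within 100 bp of each other. In replicate 1 a further summit lay 53 bp downstream of the tax-2 5′ end, in a coding exon, with a signal of 15.7. Replicate 2 had none there.

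**Figure D4:**
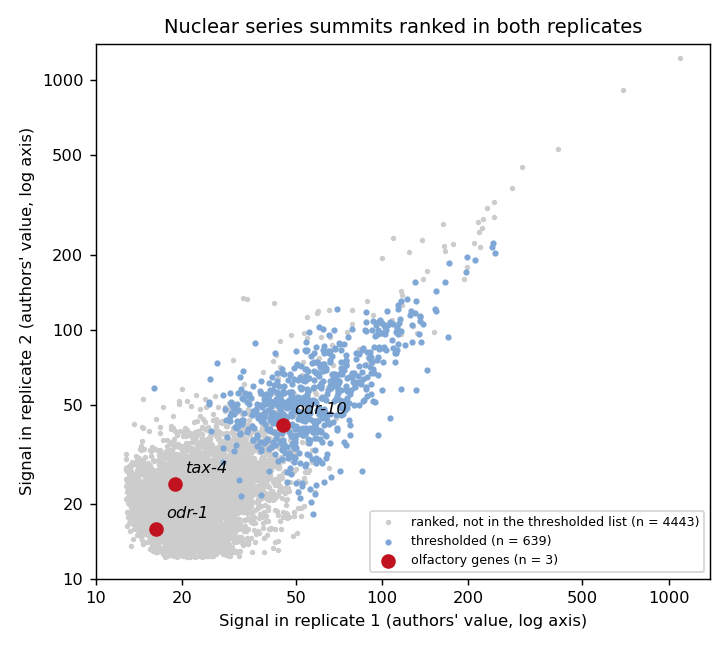
Signal in replicate 1 (x axis) and replicate 2 (y axis), authors' values on log axes, for nuclear series summits with a ranked summit of both replicates within 100 bp; red points are the 3 such summits of the olfactory genes, blue points thresholded peaks and grey points ranked peaks outside the thresholded list. odr-10, at 45.1 and 41.6, stands among the blue points, and tax-4 and odr-1 stand among the grey ones.

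Near the members the replicates met at shares somewhat below those of the whole lists, on small counts. Of the members' 6 ranked summits in the series list 3 had a summit of both replicates within 100 bp, those of odr-10, tax-4 and odr-1, beside 59.9% of all nuclear ranked summits. Of 31 replicate 1 summits near the members 6 (19.4%) had a replicate 2 summit within 100 bp, against 26.7% of the whole nuclear list. Of 30 replicate 2 summits 6 had a replicate 1 summit, against 25.9%. The highest IDR of the list was reached by 18 of the 31 in replicate 1 (58.1%, against 48.8% of that list) and 16 of the 30 in replicate 2 (53.3%, against 49.3%). The promoter interval of odr-1 and tax-2 held a summit in replicate 1 (2 of 10, against 31.3% of all genes), and that of lim-4 held one in replicate 2 (1 of 10, against 31.2%). No promoter interval held summits of both, counted from the gene's outermost 5′ end. At lim-4 a replicate 1 summit lay 209 bp past that end, just outside the interval, and 59 bp from the nearest annotated 5′ end of the gene. At ceh-37 both replicates had an intron summit upstream of an inner annotated 5′ end of the gene. That of replicate 1 lay 502 bp upstream of it (signal 16.1) and that of replicate 2 lay 793 bp upstream (14.6). Depth is unknown for both libraries, because the lists hold no read counts, and a place without a summit was not detected in these lists and is not shown to be unbound.

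The signal near the members was close to that near other genes. The strongest ranked peak within 5000 bp had a median series signal of 40.8 over the 5 members that have one, beside 44.6 over 11726 protein-coding genes. In replicate 1 the medians were 20.1 and 22.2, and in replicate 2 they were 21.2 and 21.0. The median distance from a member's outermost 5′ end to the nearest thresholded summit was 71940 bp, beside 61340 bp over all protein-coding genes. Apart from odr-10, the nearest thresholded summit was between 31768 bp (odr-1) and 312581 bp (str-1) from the member's 5′ end.

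The SOX core motif was absent from the members' ranked summits and present in their promoters, as in most promoters. CWTTGT lay within 50 bp of 0 of 6 summits, for which the exact 95% binomial interval reaches 45.9% and covers counting error only, and of 16.6% of all nuclear ranked summits. Within 100 bp the count was again 0 of 6, beside 28.6%. The homeodomain letters TAATCC, which OTX factors are known to bind, and TAATTA, common to many homeodomain factors, were at 0 of 6 within 50 bp (3.51% and 4.18% of nuclear summits). Within 100 bp TAATCC was at 0 of 6, beside 6.94%, and TAATTA at 1 of 6, beside 8.25%. Around the replicates' weaker summits CWTTGT occurred at 5 of 31 in replicate 1 (16.1%, against 15.1% of that list) and 6 of 30 in replicate 2 (against 14.9%). From 1000 bp upstream to 200 bp downstream of the 5′ end, 9 of 10 members held CWTTGT, against 77.7% of protein-coding genes, the exception being lim-4. TAATCC was in 7 of 10 promoter intervals (33.0% of genes) and TAATTA in 6 of 10 (47.4%). In a narrower interval, from 250 bp upstream to 49 bp downstream, CWTTGT was in 4 of 10 (33.55% of genes). TAATCC was in 2 of 10 there (9.37%) and TAATTA in 3 of 10 (15.5%). No match there lay under a series summit, since none of these intervals held one.

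Other genes of olfactory and neighbouring neurons held 4 thresholded summits, and 3 of these lay nearer to the 5′ end of another gene. These lists were drawn up with results of these data known, and no difference between them and the 10 genes was tested. In the list of AWC left-right asymmetry, 13 of 14 genes had a ranked summit and 2 a thresholded one, beside 58.7% and 8.32% of all protein-coding genes. The median window there was 19350 bp, longer than the 13740 bp of the 10 genes, and the windows held 1.09 summits per 10 kb, beside 0.813 for all genes. The thresholded ones were near tir-1, a TIR domain adaptor gene (signal 258.6, 278 bp upstream of the ribosomal protein gene rpl-3), and nsy-1, a MAP kinase kinase kinase gene (109.7, in an intron of F33G12.3 and 12 bp from a tRNA gene). Next came sek-1, a MAP kinase kinase gene, at 67.8, with the summit 2216 bp past its 3′ end and 402 bp upstream of eef-1A.2. die-1, a zinc finger gene, had 63.0 in an intron of its own. Their IDR values of 38.5% and 16.9% were above the threshold.

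Among 17 genes of olfactory signal transduction and receptor transport, 12 had a ranked summit (70.6%, beside 58.7% of all genes). A thresholded one lay near 2 of the 17, beside 8.32% of all genes. The list named 18 genes, but ttx-4 was not found in the annotation and was left out. The density was 0.929 summits per 10 kb, beside 0.813. eat-16, which codes for a regulator of G protein signalling, had its thresholded summit 189 bp upstream of its own 5′ end, in an intron of ocrl-1. Its series signal was 91.1 and its replicate signals were 43.4 and 51.9, the peak being thresholded in replicate 2 and not in replicate 1. The thresholded summit of arr-1, the arrestin gene, stood 1131 bp upstream with 111.3 and was nearer to sms-2. The strongest others were osm-9, a TRPV channel gene, at 67.3 and odr-8, which codes for a protein that acts in receptor transport, at 57.2. The osm-9 summit lay in an intron, inside the non-coding RNA gene B0212.7 and 29 bp from a tRNA gene, with an IDR of 7.33% and no replicate 2 summit within 100 bp. The odr-8 summit lay 3642 bp past its 3′ end, nearer to C43G2.3, with no replicate 1 summit within 100 bp. Its series IDR was 64.75%, though in replicate 2 the peak there was thresholded, with a signal of 34.7. Of the 7 identity regulators of neighbouring amphid neurons, 5 had a ranked summit (71.4%, beside 58.7% of all genes) and none a thresholded one (beside 8.32%). The strongest were at odr-7, the nuclear receptor gene of AWA identity (61.3, inside a tRNA gene 761 bp past its 3′ end), and lin-11, a LIM homeodomain gene (44.9, in an intron).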

How the data were processed

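ChIP-seq peak lists on ce11 were analysed. Per the deposited file descriptions, the authors made them from the alignments of 1 replicate or of both, with a further input not described there. No source used here names the aligner or the peak caller, and the control named in the labels was not analysed here. In the deposited lists the signal is the authors' value per peak, and the ranked lists hold the −log10 of the IDR as deposited by the authors. The shorter of the ranked series lists was the main one, with the other as an alternative. ce11 and WBcel235 are the same assembly, and all peak ends fell within its chromosome lengths. Genes came from Ensembl release 115, and sequence from the NCBI WBcel235 genome. Coordinates are 1-based. Summits were placed by gene window and nearest protein-coding 5′ end, and replicates were compared at summits within 100 bp, with Python 3.11.15, pandas 2.3.3, numpy 2.4.6 and scipy 1.17.1. The placing steps were tested on simulated data. No test between groups was made, since the 2 libraries form 1 group. The labels number them as biological replicates.

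The 10 genes, the other lists and the settings were chosen with earlier results of these data known. Named were all 10 genes, of each other list every gene with a thresholded summit and up to 2 more of highest ranked signal, and the gene whose 5′ end is nearest to a described summit; genes that hold a summit, and the snoRNA gene, were named after their values were seen. The B box core, the snoRNA and repeat counts, the homeodomain letters and the promoter intervals were chosen after seeing the data. The alternatives were other windows, other lists, each replicate alone, stronger peaks, nearest 5′ ends and other distances between replicate summits.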

Additional observations from a re-analysis of the deposited data

How the results depend on the processing

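The 1 member with a thresholded summit, odr-10, remained with windows of 2000 and 10000 bp, the conservative list and replicate 1 alone. The count fell to 0 in the gene body alone, with summits whose nearest protein-coding 5′ end is the member's, and with thresholded peaks at or above their median signal. It ranged from 0 to 1 over the lists of single replicates. Of all protein-coding genes, 1.04% had a thresholded summit in the gene body, 4.83% within 2000 bp and 13.5% within 10000 bp. Members with a ranked summit numbered 0 in the gene body (15.8% of all protein-coding genes), 2 at 2000 bp (40.2%) and 7 at 10000 bp (77.5%). With a single replicate they numbered 10 in replicate 1 (90.7% of all genes) and 9 in replicate 2 (91%). They numbered 3 by nearest 5′ end (lim-4, odr-1 and tax-4) and 3 among peaks at or above the median signal. The share of all genes was not computed for these last settings. Ranked summits numbered 0 in the gene body, 2 at 2000 bp, 13 at 10000 bp, 3 by nearest 5′ end, 3 among the stronger peaks, and 30 to 31 with a single replicate, whose list is far longer. Summits with CWTTGT numbered 5 to 6 there. The median strongest signal was 65.5 at 2000 bp, 41.7 at 10000 bp and 20.1 to 21.2 with a single replicate, on that list's own scale. Ranked series summits with a summit of both replicates nearby numbered 3 within 100 bp, 2 within 50 bp and 4 within 200 bp. The cause of the other shifts was not tested. No paired analysis was possible because the 2 libraries form 1 group. Unknown depth limits every count, and the control library was not analysed here.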
